A study of Mus musculus with 36 samples.

Results

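Heat shock proteins and their partners are molecular chaperones, which bind unfolded protein chains and help them fold, move between compartments or reach degradation. HSP70 proteins (the Hspa genes) hold short unfolded stretches, J-domain proteins (Dnaja, Dnajb and Dnajc) deliver clients to HSP70 and start its ATP cycle, HSP90 (Hsp90aa1 and Hsp90ab1) finishes the folding of kinases and receptors, and the CCT ring (Cct2 to Cct8 with Tcp1) folds actin and tubulin in a closed chamber. Some of these genes, such as Hspa1a, Hsph1 and Dnajb1, are kept low in most resting cells and are switched on by heat shock factor HSF1 when proteins unfold. Others, such as Hspa4, Hsp90ab1 and the CCT subunits, are expressed at all times. Every gene was taken whose symbol starts with Hspa, Hspb, Hspd, Hspe, Hsph, Hsp90a, Dnaja, Dnajb, Dnajc or Cct2 to Cct8, leaving out the endoplasmic reticulum chaperone Hspa5. This gave 61 of 9844 genes in the table of 7 tissues and 53 of 8001 genes in the table of a cell sort, and all 53 were also among the 61.

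The cells were eosinophils, white blood cells of the gut, lung, blood and bone marrow, taken at steady state. The mice were C57BL/6, were 8 to 12 weeks of age, and males and females were pooled. Total eosinophils of wild-type mice made up 24 libraries, from small intestine (4), colon (3), skin (3), lung (3), spleen (4), blood (4) and bone marrow (3). A second table held small intestine eosinophils of NMUR1-TdT reporter mice, in which a fluorescent protein marks cells that express Nmur1, a receptor for neuromedin U, and comprised 5 Nmur1 positive and 6 Nmur1 negative libraries. Libraries were made with Smart-seq2, which copies whole transcripts, and values are TPM, the share of a transcript among all transcripts of a library, which are scaled for transcript length and keep no read depth, so the depth is unknown. Whether replicates came from separate animals is not stated, and the p-values therefore cover only variation among libraries, which may be technical. How the cells were released from each tissue is not given in the sources used here.

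Not all of the 61 genes make cytosolic chaperones. By textbook location 10 are mitochondrial (among them Hspa9, Hspd1, Hspe1, Dnaja3 and Dnajc15) and 11 belong to the endoplasmic reticulum (among them Hspa13, Dnajb9 and Dnajb11). Another 3 match by symbol only, since Hspb11 is a part of the cilium transport machinery, Hspbp1 is a nucleotide exchange partner of HSP70, and Hspbap1 was named for a protein that binds HSPB1. No small heat shock protein of the crystallin type was among the genes measured. An inducible list of 13 genes held 11 measured ones, namely Hspa1a, Hspa1b, Hspa8, Hsph1, Hspa4l, Hsp90aa1, Dnaja1, Dnajb1, Dnajb4, Hspd1 and Hspe1. The eosinophil genes Siglecf, Ccr3 and Il5ra were above 0 in every library. The granule genes Epx and Ear1 were high in bone marrow and spleen and near or at 0 in colon. All 61 and all 53 genes passed the filter on low values.

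The chaperone transcripts differed widely among the 7 tissues. In limma's moderated F test across tissues with Benjamini-Hochberg adjustment, 54 of 61 genes passed an adjusted p of 0.05, against 81.1% of all 9806 genes tested, so a difference among tissues was as usual for these genes as for others. The genes that did not pass were Dnajb12, Dnajb14, Dnajc10, Dnajc15, Dnajc16, Dnajc25 and Dnajc30, all J-domain genes. The summed level of the 61 genes was 5806 to 12590 TPM in small intestine, 8365 to 12930 TPM in colon and 15090 to 25600 TPM in skin. It was 2804 to 2979 TPM in lung, 2623 to 2891 TPM in spleen, 2399 to 2840 TPM in blood and 3948 to 4228 TPM in bone marrow. Every library of small intestine, colon and skin was thus above every other library in this sum, and lung lay with spleen and blood. The inducible list made up the larger part of the sum in the first 3 tissues, with 3108 to 8787 TPM in small intestine, 5477 to 9496 TPM in colon and 9974 to 18900 TPM in skin, against 779.6 to 1663 TPM over lung, spleen, blood and bone marrow. In skin Hspa8, which is also expressed without stress, and Dnaja1 weighed most in it, with means of 7612 and 4809 TPM. The skin means of Hspa1a, Hsph1 and Dnajb1 were 236.6, 360.5 and 488.1 TPM.

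**Figure D1:**
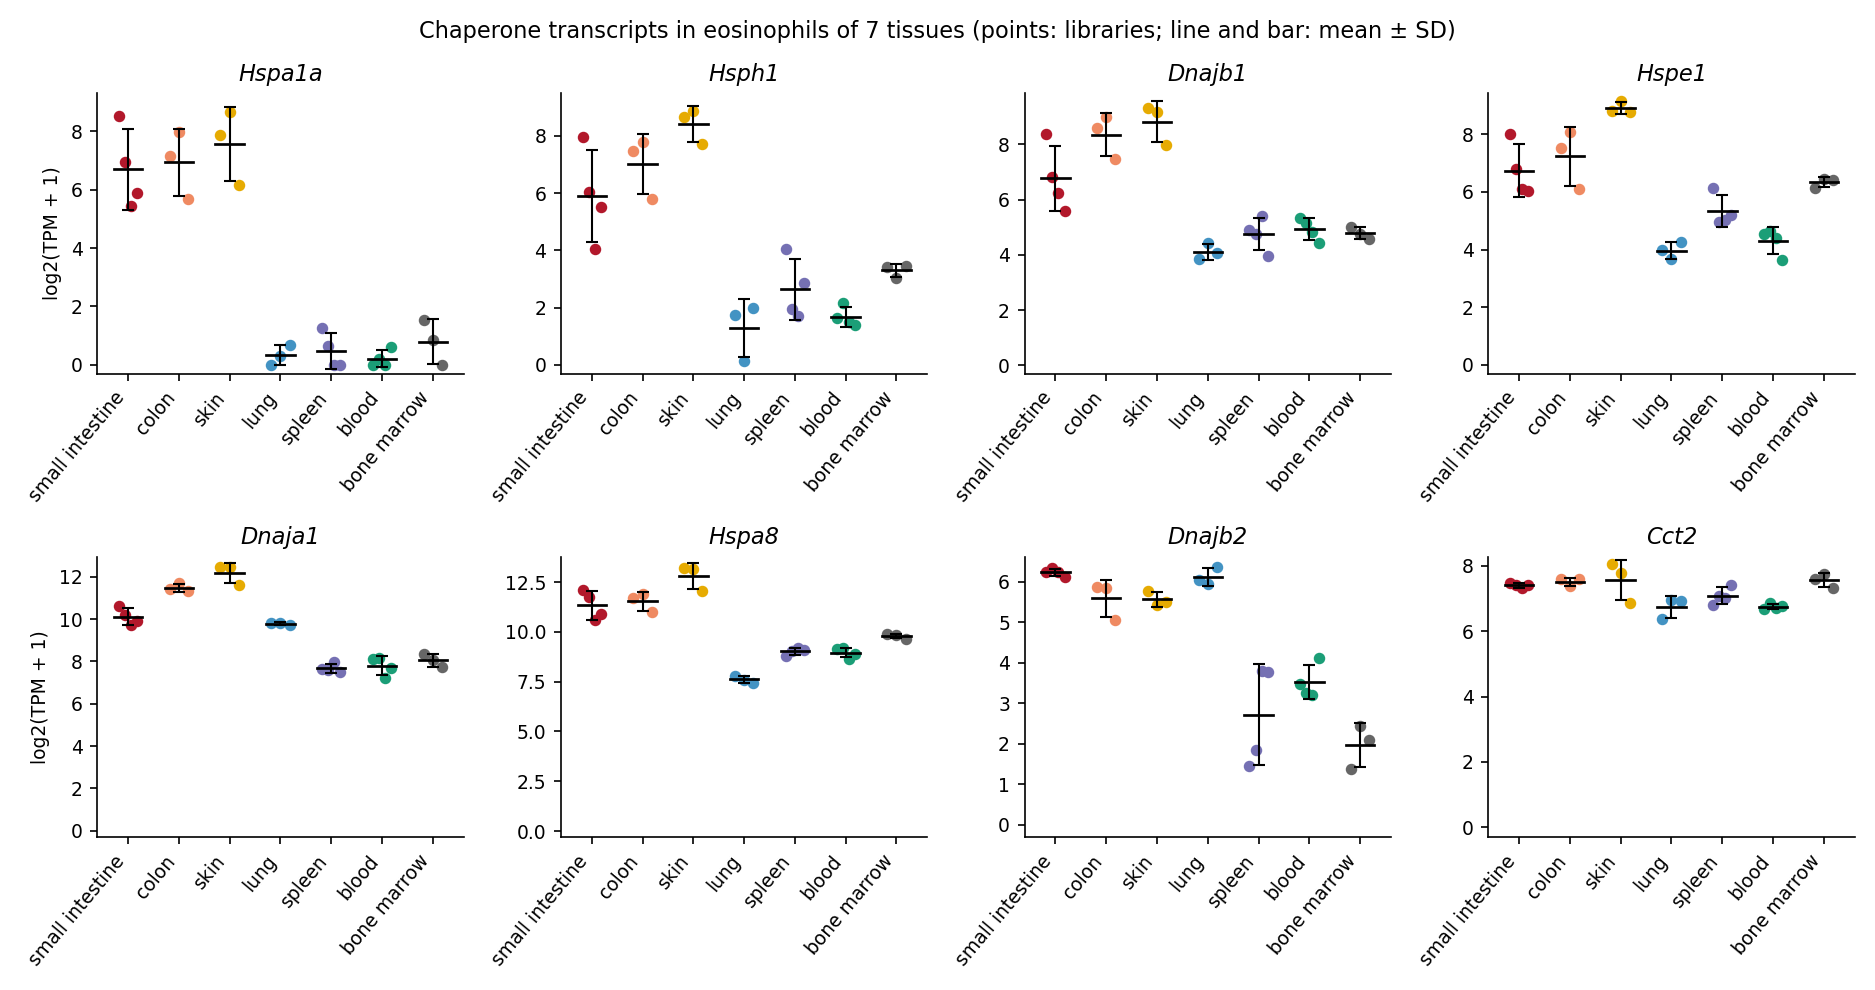
Levels of 8 chaperone genes as log2(TPM + 1) in each library of 7 tissues, with the mean and SD of each tissue. All but Dnajb2 had their highest mean in skin. Hspa1a, Dnajb1 and Hspa8 had every small intestine, colon and skin library above all others, while Dnaja1 and Dnajb2 were also high in lung and Cct2 overlapped between the tissues.

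Hspa1a, which encodes the stress-inducible cytosolic HSP70, showed the widest range of tissue means on the log2(TPM + 1) scale among the 61 genes. It was at 368.33, 121.22, 42.38 and 57.47 TPM in the 4 small intestine libraries, at 140.51, 248.27 and 50.66 TPM in colon and at 235.9, 402.85 and 71.19 TPM in skin. No lung library was above 0.6 TPM, no spleen library above 1.38 TPM, no blood library above 0.53 TPM and no bone marrow library above 1.9 TPM. The groups did not overlap, and even the lowest intestinal library stood far above the highest library of lung, spleen, blood or bone marrow. Hspa1a lies on chromosome 17 at 34969190 to 34972156 (minus strand, mm10) next to its near-identical copy Hspa1b, at 34956436 to 34959238. Their coding sequences share 99.43% of aligned bases, so reads could be split between them, and Hspa1b was estimated at a median of 5.402% of the Hspa1a level in the 10 tissue libraries with at least 10 TPM of Hspa1a. Hspa1b was listed at 0 in every lung and spleen library and reached 24.48, 5.7, 1.55 and 1.34 TPM in small intestine.

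Heat shock factor binds runs of the unit GAA in alternating orientation, and sequence around gene starts was searched for such runs on both strands, as GAANNTTCNNGAA or TTCNNGAANNTTC (3 units) and as GAANNTTC or TTCNNGAA (a pair of units, which also lies within every run of 3). The windows were RefSeq starts of build GRCm38.p6, from 250 bases before to 50 bases after the start, and 49 of the 61 genes had one. A gene with several windows was counted when any of them held a match. Of the inducible list, 7 of 9 genes with a window held a pair of units and 3 held 3 units, which is 77.8% and 33.3%. These genes are not independent, since Hspa1a and its copy Hspa1b held the same pair at the same place and Hspd1 and Hspe1 share a run. Of the other members, 6 of 40 held a pair and 1 held 3 units, which is 15.0% and 2.5%. The shares among the 7993 genes of the tissue table with a window were 14.0% and 0.538%. The windows below are shown because they belong to an HSP70, an HSP110 and a mitochondrial chaperonin gene of the inducible list and to the only other member with 3 units, and capitals mark the matches.
Hspa1a, chr17:34972107-34972406, minus strand: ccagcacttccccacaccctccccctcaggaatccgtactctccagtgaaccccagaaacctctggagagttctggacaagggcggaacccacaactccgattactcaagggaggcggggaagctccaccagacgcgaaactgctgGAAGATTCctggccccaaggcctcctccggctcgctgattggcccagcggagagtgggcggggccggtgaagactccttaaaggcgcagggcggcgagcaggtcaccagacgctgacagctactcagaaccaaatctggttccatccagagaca
Hsph1, chr5:149636287-149636586, minus strand: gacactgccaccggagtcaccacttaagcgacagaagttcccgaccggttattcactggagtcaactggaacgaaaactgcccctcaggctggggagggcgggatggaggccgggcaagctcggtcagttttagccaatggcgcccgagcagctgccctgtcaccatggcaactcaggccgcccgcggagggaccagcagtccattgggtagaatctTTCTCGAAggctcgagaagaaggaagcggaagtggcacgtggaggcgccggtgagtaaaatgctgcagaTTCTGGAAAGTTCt
Hspe1, chr1:55087898-55088197, plus strand: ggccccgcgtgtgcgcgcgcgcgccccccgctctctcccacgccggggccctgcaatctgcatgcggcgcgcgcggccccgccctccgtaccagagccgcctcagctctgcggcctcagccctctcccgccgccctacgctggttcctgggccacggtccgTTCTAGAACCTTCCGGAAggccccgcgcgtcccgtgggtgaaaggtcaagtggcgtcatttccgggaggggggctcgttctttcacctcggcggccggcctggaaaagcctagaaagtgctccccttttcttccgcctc
Dnajb6, chr5:29735648-29735947, plus strand: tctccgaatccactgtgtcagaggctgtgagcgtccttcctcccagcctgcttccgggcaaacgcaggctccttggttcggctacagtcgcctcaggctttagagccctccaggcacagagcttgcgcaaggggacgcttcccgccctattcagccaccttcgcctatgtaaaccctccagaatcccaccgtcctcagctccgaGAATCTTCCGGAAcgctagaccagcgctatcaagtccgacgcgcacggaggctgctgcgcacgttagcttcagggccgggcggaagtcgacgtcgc
The Hsph1 window held a 3-unit match after the start and a pair before it, and the Hspe1 window held 2 overlapping 3-unit matches. The Hspe1 window also lies against the start of Hspd1, which is read in the opposite direction, and the same run was found in the Hspd1 window on the other strand. The windows of Dnajb1 and Hspa4l held neither run. A match describes the sequence and is not evidence of binding.

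The 4 tissues that border the outside (small intestine, colon, skin and lung, called barrier tissues here) were set against spleen, blood and bone marrow. Of the 61 genes 26 rose and 7 fell in barrier tissues (limma, Benjamini-Hochberg adjusted p under 0.05), against 22.4% of all genes tested that rose and 31.1% that fell. All 11 measured genes of the inducible list were among the 26, and their median log2 change was 2.34, while of the 50 other members 15 rose and 7 fell with a median of 0.34. Log2 changes are differences of log2(TPM + 1), which understates the change of genes near 0, and are given relative to the median of all genes in the same comparison, which lay at -0.155 here. The adjusted p-values refer to the change before this shift. With lung left out of the barrier tissues, an alternative chosen after seeing the data, 11 of 11 inducible genes still rose, with a median of 3.04, and of the 50 others 23 rose and 4 fell.

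**Figure D2:**
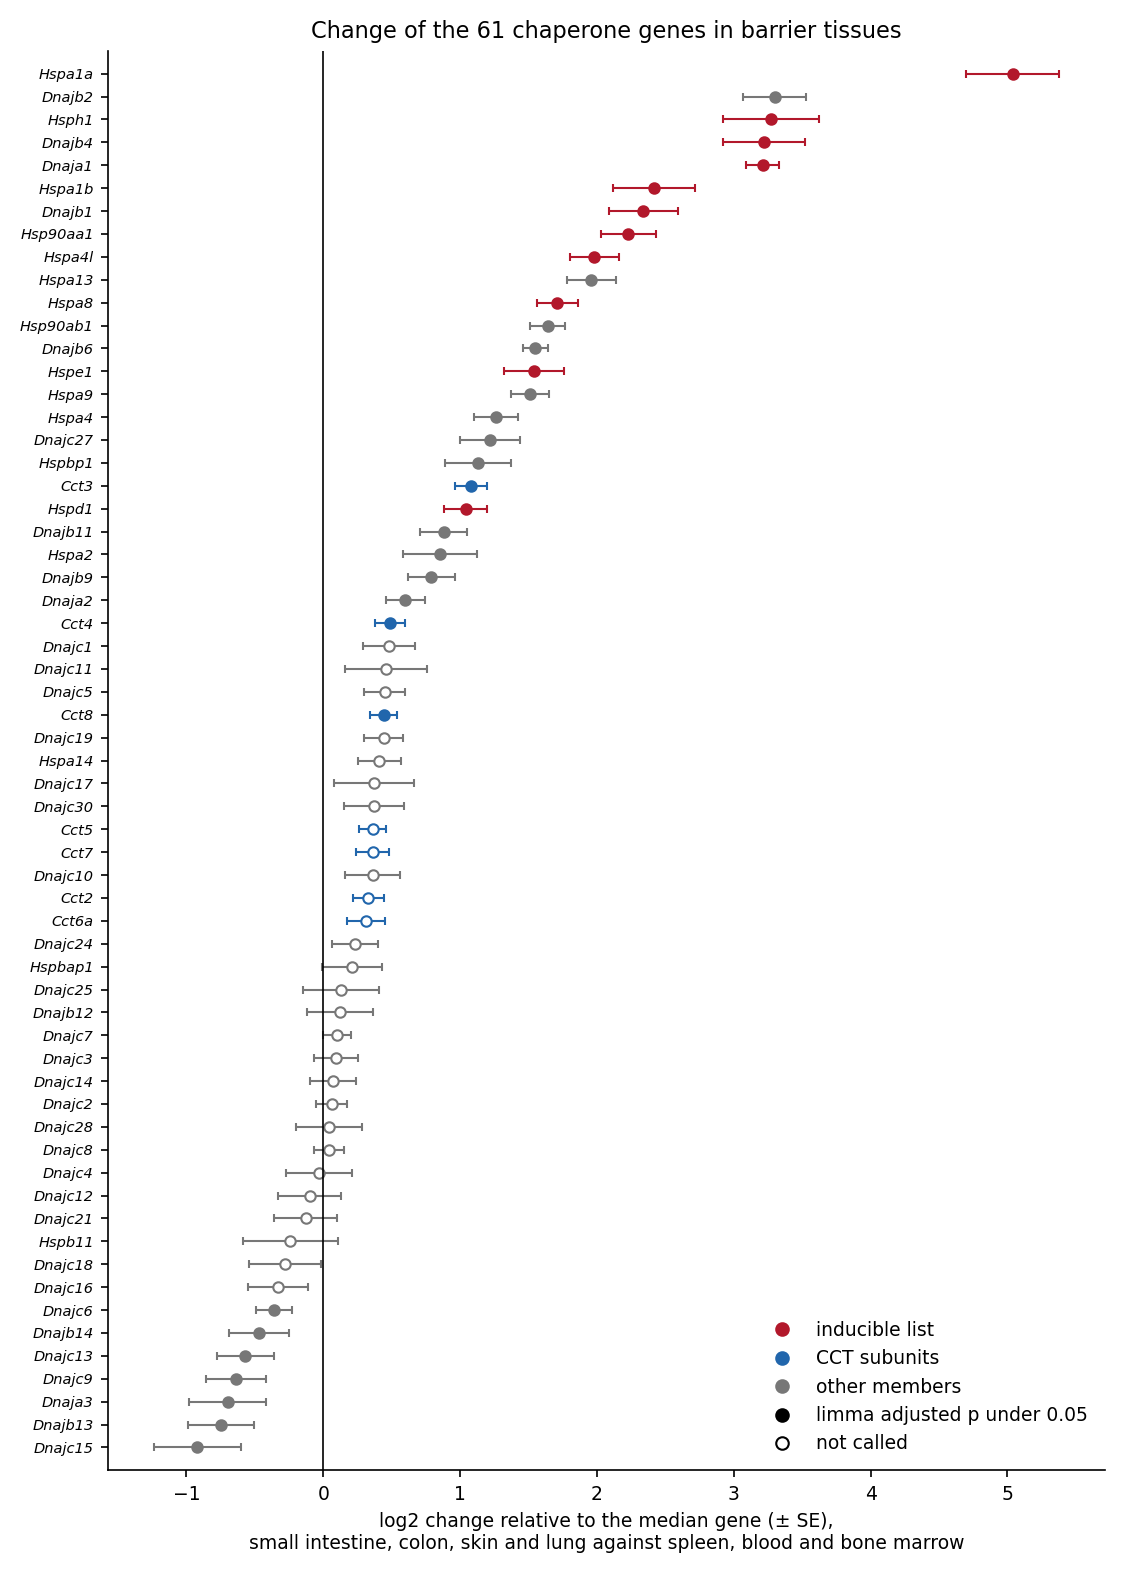
Log2 change of log2(TPM + 1) with its SE for each of the 61 genes, small intestine, colon, skin and lung against spleen, blood and bone marrow, relative to the median of all genes. Filled points passed an adjusted p of 0.05 and colours mark the inducible list and the CCT subunits. Hspa1a lies furthest to the right at 5.04 and Dnajc15 furthest to the left at -0.92.

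Among HSP70 and HSP110 genes of the inducible list, Hspa1a rose by 5.04 on the log2 scale (SE 0.34, limma adjusted p = 4.714e-12) and Hspa1b by 2.42 (SE 0.3). Hsph1, an HSP110 that acts as nucleotide exchange factor of HSP70, was at 247.6, 65.47, 15.58 and 45.18 TPM in small intestine, at 174.93, 218.33 and 55.06 TPM in colon, at 408.44, 464.87 and 208.06 TPM in skin and at 2.37, 0.1 and 2.93 TPM in lung. It was at 15.65, 2.89, 2.28 and 6.26 TPM in spleen, 2.14, 3.44, 1.82 and 1.64 TPM in blood and 9.76, 7.2 and 9.97 TPM in bone marrow. The lowest small intestine library of Hsph1 was thus just below the highest spleen library, and lung was as low as blood. Its log2 change was 3.27 (SE 0.35, limma adjusted p = 4.601e-08).

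Hspa8, the constitutive HSP70 that also responds to heat, had the highest mean of the 9 Hspa genes under the symbol rule in every tissue. Hspa5, outside the rule, was higher than Hspa8 in lung, with 291.16 to 359.44 TPM. Hspa8 was at 4378.7, 3441.11, 1524.06 and 1875.78 TPM in small intestine, 3343.56, 3832.58 and 2013.54 TPM in colon, 9421.1, 9155.19 and 4260.77 TPM in skin and 221.88, 191.58 and 172.61 TPM in lung. It was at 437.94, 520.58, 577.8 and 539.95 TPM in spleen, 557.8, 582.52, 404.08 and 468.76 TPM in blood and 940.09, 921.0 and 805.64 TPM in bone marrow. Lung libraries were therefore the lowest of all 24 for Hspa8, while skin libraries were among the highest. Its log2 change in barrier tissues was 1.71 (SE 0.15, limma adjusted p = 3.961e-09).

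The J-domain genes split into a few that rose strongly and many that did not. Dnaja1, a farnesylated cytosolic partner of HSP70, was at 1584.86, 1169.99, 853.93 and 975.16 TPM in small intestine, 2755.52, 3339.51 and 2591.83 TPM in colon, 5559.0, 5705.55 and 3161.43 TPM in skin and 915.3, 901.68 and 840.39 TPM in lung. The highest library among spleen, blood and bone marrow had 326.28 TPM of Dnaja1, so all 4 barrier tissues stood apart, lung included. Dnaja1 rose by 3.21 on the log2 scale (SE 0.12, limma adjusted p = 5.307e-17). Dnajb1, the HSP40 that turns HSF1 off together with HSP70, was at 332.07, 112.99, 74.94 and 47.25 TPM in small intestine, 380.93, 508.65 and 176.16 TPM in colon, 630.02, 581.34 and 252.96 TPM in skin and 13.31, 20.28 and 15.6 TPM in lung. The spleen, blood and bone marrow libraries of Dnajb1 ranged from 14.7 to 41.02 TPM, so that lung lay toward their lower end. Dnajb1 rose by 2.34 (SE 0.25, limma adjusted p = 4.558e-08) and Dnajb4, a related HSP40, by 3.22 (SE 0.3).

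Dnajb2, a J-domain protein with ubiquitin-interacting motifs that sorts clients to the proteasome, is not on the inducible list and rose by 3.3 on the log2 scale (SE 0.23, limma adjusted p = 1.288e-11). It was at 74.02, 80.09, 74.79 and 67.86 TPM in small intestine, 57.7, 56.25 and 32.46 TPM in colon, 54.03, 41.91 and 44.33 TPM in skin and 64.72, 60.74 and 81.25 TPM in lung, against 1.6 to 16.32 TPM over the spleen, blood and bone marrow libraries. Its barrier levels were nearly even, with no peak in skin. Dnajb6, which blocks the clumping of polyglutamine proteins, rose by 1.55 (SE 0.09) and was above 170 TPM in all barrier libraries, lung included. Of the 19 measured cytosolic and nuclear J-domain genes, a list that includes Dnaja1, Dnajb1 and Dnajb4, 7 rose and 3 fell, and the other 9 did not pass the test.

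The mitochondrial chaperones Hspd1 (HSP60) and Hspe1 (HSP10) fold proteins in the matrix as a pair, and their genes lie head to head on chromosome 1, where they overlap between 55088132 and 55088243 (mm10). Hspe1 was at 257.17, 110.37, 67.42 and 64.98 TPM in small intestine, 184.76, 270.74 and 67.87 TPM in colon, 444.21, 561.44 and 435.83 TPM in skin and 14.71, 11.82 and 17.98 TPM in lung. The other groups held 30.36 to 69.09 TPM in spleen, 11.4 to 23.99 TPM in blood and 69.99 to 86.06 TPM in bone marrow, so bone marrow reached the lower intestinal libraries. Hspe1 rose by 1.54 (SE 0.22, limma adjusted p = 9.018e-06) and Hspd1 by 1.04 (SE 0.16, adjusted p = 3.595e-05). Hspa9, the mitochondrial HSP70 that pulls proteins through the inner membrane, rose by 1.51 (SE 0.14), and unlike Hspd1 and Hspe1 its highest mean was in small intestine (93.65 TPM). Of the 10 measured mitochondrial members 3 rose, namely these, and 2 fell (Dnaja3 and Dnajc15), numbers near the 22.4% and 31.1% of all genes.

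Of the constitutive cytosolic list 4 genes were measured and 3 rose, Hsp90ab1, Hspa4 and Hspa2, while Hspa14 did not pass (log2 change 0.41, SE 0.16, limma adjusted p = 0.1868). Hsp90ab1, the constitutive HSP90, was at 1291.95, 971.37, 500.97 and 738.04 TPM in small intestine, 1009.15, 1155.29 and 731.0 TPM in colon, 3065.68, 3253.7 and 2691.91 TPM in skin and 335.21, 409.1 and 345.44 TPM in lung. It was at 194.19 to 396.04 TPM in spleen, 205.04 to 324.19 TPM in blood and 538.89 to 618.81 TPM in bone marrow. Bone marrow thus overlapped the lowest small intestine library, and skin stood alone at the top. Hsp90ab1 rose by 1.64 (SE 0.13, limma adjusted p = 3.007e-10), somewhat less than its inducible paralog Hsp90aa1, which rose by 2.23 (SE 0.2, adjusted p = 3.156e-09). The difference between the paralogs was not tested. The call for Hspa2, at 0.85 (SE 0.27, adjusted p = 0.02981), was lost when any of 6 single libraries was left out, with adjusted p-values of 0.05191 to 0.07044, and with a pseudocount of 0.1.

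The 7 measured subunits of the CCT ring moved less. Cct3 rose by 1.08 (SE 0.12, limma adjusted p = 2.995e-07), Cct4 by 0.49 (SE 0.11, adjusted p = 0.01633) and Cct8 by 0.44 (SE 0.1, adjusted p = 0.02302), and Cct2, Cct5, Cct6a and Cct7 had changes of 0.31 to 0.36 that did not pass. The calls for Cct4 and Cct8 were lost under quantile normalization, with adjusted p-values of 0.4803 and 0.8343, and that for Cct8 without bone marrow replicate 1 (adjusted p = 0.06928). Tcp1, the subunit whose symbol the rule does not match, rose by 0.85 (SE 0.13, adjusted p = 0.0001155). The summed level of the 7 subunits was 738.6 to 872.6 TPM in small intestine, 829.6 to 841.6 TPM in colon, 1131 to 1820 TPM in skin and 394.4 to 445.8 TPM in lung, against 516.8 to 654.7 TPM in spleen, 504.5 to 564.1 TPM in blood and 802.9 to 943.6 TPM in bone marrow. Skin was again highest and lung lowest, and small intestine and colon overlapped bone marrow. With lung left out all 7 subunits rose.

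The 7 members that fell in barrier tissues were Dnajc15 (-0.92), Dnajb13 (-0.75), Dnaja3 (-0.7), Dnajc9 (-0.64), Dnajc13 (-0.57), Dnajb14 (-0.47) and Dnajc6 (-0.36), none of them on the inducible list. Dnajc9, a histone chaperone, had its highest mean in bone marrow (83.02 TPM). Without lung the calls for Dnaja3, Dnajb13 and Dnajb14 were lost, with limma adjusted p-values of 0.5783, 0.1232 and 0.07388, and that for Dnajb14 was also lost under quantile normalization (adjusted p = 0.3323). Dnaja3, a mitochondrial HSP40, was at 0.0, 0.0 and 0.58 TPM in lung, and Dnajb13, a sperm tail J-domain protein, was at 0.85, 0.0 and 0.0 TPM there. Dnajb13 overlaps Ucp2 and Dnaja3 overlaps Coro7 on the other strand, and because the counting of strand is not given in the sources used here, reads of such partners cannot be told apart.

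Each tissue was also set against blood, and these comparisons share the 4 blood libraries. Skin had 30 of 61 members higher and 3 lower (22.9% and 14.2% of all genes), colon 27 higher and 2 lower (19.9% and 12%), and small intestine 32 higher and 5 lower (26% and 18%). All 11 inducible genes were higher in each of the 3, with median log2 changes of 3.69 in skin, 2.94 in colon and 2.29 in small intestine, while the medians of the other 50 members were 0.53, 0.3 and 0.37. In colon the call for Hspa4l was lost without blood replicate 4 (limma adjusted p = 0.07803) or colon replicate 4 (adjusted p = 0.1052). Skin had the highest tissue mean for 31 of the 61 members, or 50.82%, where 22.0% of all genes tested had theirs in skin, and for 9 of the 11 inducible genes. The exceptions were Dnajb4, highest in colon, and Hspa4l, highest in small intestine. Against blood, Hspa1a rose by 7.2 in skin (SE 0.63, limma adjusted p = 8.171e-10), 6.63 in colon and 6.35 in small intestine, and Hspe1 by 4.42, 2.83 and 2.29 in the same order. All 7 CCT subunits were higher in skin than in blood, 3 in colon and 4 in small intestine, but quantile normalization left 6, 1 and 1. The call for Cct2 was lost under it in all 3 tissues (limma adjusted p = 0.1181 in skin, 0.1249 in colon and 0.2584 in small intestine), that for Cct8 in colon and small intestine, and that for Cct7 in small intestine. In small intestine Cct8 was also lost after median-ratio scaling (adjusted p = 0.12) and without any of 5 single libraries, blood replicate 1 or 2 or small intestine replicate 1, 2 or 4.

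Lung stood apart from the other barrier tissues. Only 1 inducible gene was higher in lung than in blood, Dnaja1 (log2 change 2.43, SE 0.23, limma adjusted p = 1.539e-07), and 2 were lower, Hspa8 (-0.93, SE 0.28, adjusted p = 0.0005598) and Hspd1 (-0.37, adjusted p = 0.03311). Over all members 7 were higher and 12 lower in lung, against 8.99% and 26.7% of all genes. These counts depended on scaling, since the median of all genes lay at -0.426 in this comparison, and after median-ratio scaling 11 members were higher and 6 lower, after quantile normalization 11 and 9. The call for Hspd1 was lost under both and without any of 5 single libraries (blood replicate 2, 3 or 4 or lung replicate 2 or 3, with adjusted p-values of 0.06484 to 0.1132), and those for Cct4, Cct5 and Cct7 after median-ratio scaling. Dnaja1, Dnajb2, Dnajb6 and Hspa13, an endoplasmic reticulum HSP70, were higher in lung, with log2 changes of 2.43, 3.03, 1.33 and 2.19. Of the CCT subunits Cct4, Cct5 and Cct7 were lower, while Cct3 was higher, at 0.99 (SE 0.22, limma adjusted p = 0.04412). Without blood replicate 3 the number of members higher in lung was 4.

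Bone marrow had 18 members higher and 4 lower than blood (19.3% and 15.3% of all genes), and 15 of the 18 were outside the inducible list. Of 7 CCT subunits 6 were higher, with Cct6a at 0.81 (SE 0.25) and Cct2 at 0.74 (SE 0.21), and 3 of 11 inducible genes were (Hspe1, Hsp90aa1 and Hspa8). The call for Cct5 was lost without bone marrow replicate 1 or 2 or blood replicate 1 or 3 (limma adjusted p of 0.05394 to 0.1033), and those for Cct6a and Cct7 without bone marrow replicate 3 (0.05185 and 0.0612). The call for Hspa8 was lost under quantile normalization (0.0592) and without bone marrow replicate 1 or 2 or blood replicate 3 or 4 (0.05033 to 0.07717), and that for Hsp90aa1 without bone marrow replicate 2 (0.06269) or blood replicate 4 (0.05552). Dnajc9 had the largest change at 3.13 (SE 0.4, limma adjusted p = 7.183e-07), with a mean of 83.02 TPM in bone marrow. Spleen was close to blood, with 0 members higher and 1 lower, Dnajb13, against 0.857% and 0.235% of all genes. At an unadjusted limma p under 0.05 the counts were 4 and 1. That call was lost without any of 5 single libraries and with a pseudocount of 0.1 (adjusted p = 0.1886).

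**Figure D3:**
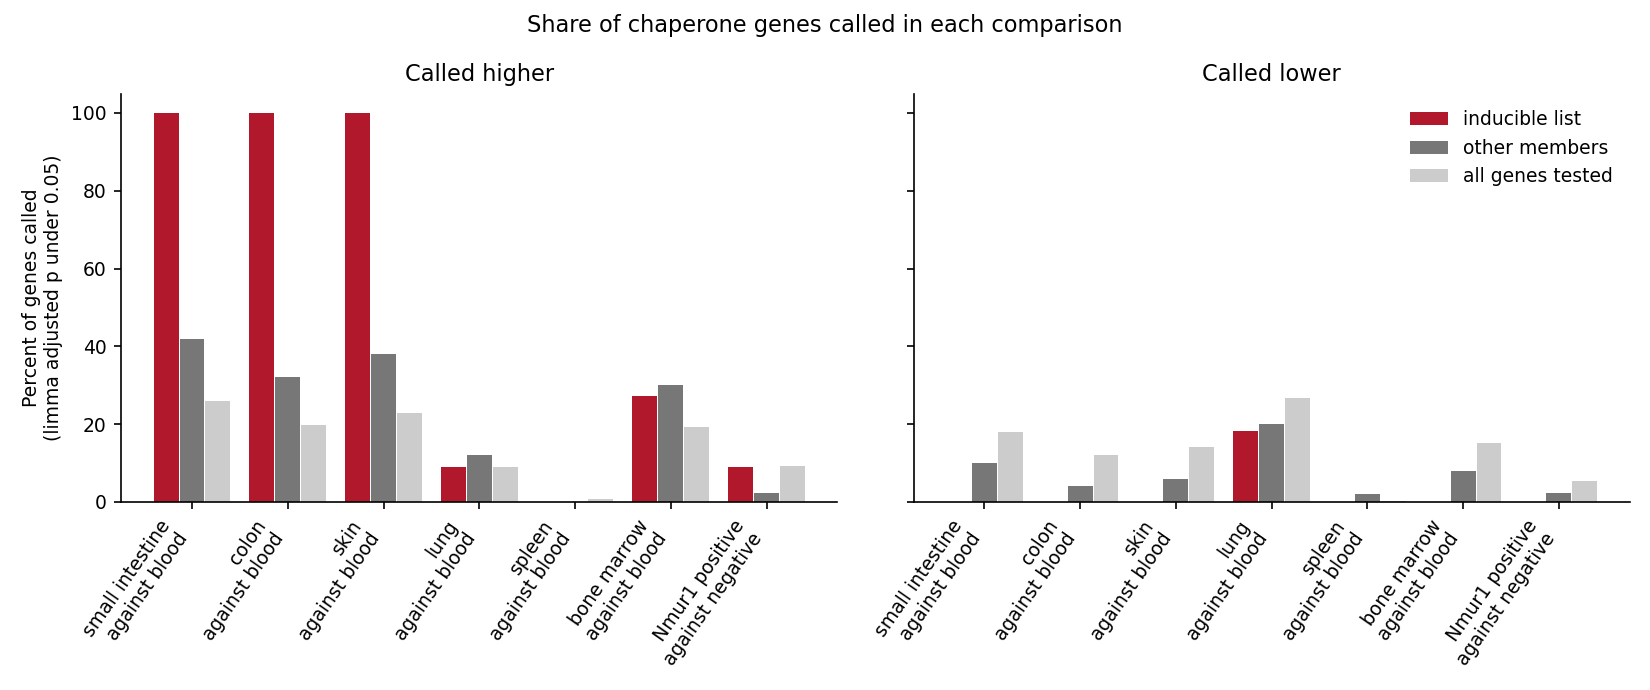
Percent of genes called higher (left) and lower (right) at a limma adjusted p under 0.05 in 7 comparisons, for the 11 inducible genes, the other members and all genes tested. All 11 inducible genes were called higher in small intestine, colon and skin against blood, while the other members stood nearer to the share of all genes.

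Small intestine, colon and skin were also set against the other 4 tissues by complete separation of libraries, a grouping chosen with the tissue levels known, so the count is a description. In 8 members every small intestine, colon and skin library was above every lung, spleen, blood and bone marrow library, against 2.21% of all genes, and in 0 members every one was below, against 0.948%. These were Hspa1a, Hspa1b, Hspa8, Hsp90aa1, Dnajb1 and Dnajb4 of the inducible list, and Dnajb6 and Hspa9 outside it.

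Lists outside the symbol rule were counted in the same comparison of barrier tissues, where 22.4% of all genes rose and 31.1% fell. Of 14 measured heat shock factors and further heat shock targets 9 rose and 0 fell in barrier tissues, with Stip1, which bridges HSP70 and HSP90, at 2.32 (SE 0.18), and Bag3, an HSP70 exchange factor of selective autophagy, at 1.67 (SE 0.29). Hsf1 itself rose by 0.71 (SE 0.2, limma adjusted p = 0.02382). Of 25 cochaperones of HSP70 and HSP90, which share Bag3 and Stip1 with that list, 10 rose and 5 fell. Of 12 prefoldin subunits and CCT partners 4 rose and 3 fell, near the shares of all genes. Of 16 chaperones and stress factors of the endoplasmic reticulum outside the symbol rule 12 rose and 1 fell. Hspa5, the main one, was at 1799.65 to 2430.41 TPM in small intestine and 1861.88 to 1929.17 TPM in colon but at 169.92 to 259.57 TPM in skin, so it did not share the skin peak of the inducible list.

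Genes known to respond within minutes to handling and enzymatic release of cells also rose in barrier tissues. Their order among the tissues differed from that of the inducible list, with the highest sum in colon and not in skin. Of 28 immediate early and dissociation genes 26 rose and 2 fell in barrier tissues. Their summed level was 8314 to 12390 TPM in small intestine, 22310 to 29010 TPM in colon, 10340 to 12310 TPM in skin and 11250 to 12350 TPM in lung, against 2636 to 5165 TPM in spleen, 5093 to 8782 TPM in blood and 1065 to 1183 TPM in bone marrow. Lung was thus as high as skin in this sum. Its sum of the inducible list was 1225 to 1384 TPM, below that of skin and above the 779.6 to 1099 TPM of blood. Within that list Dnaja1 was higher in lung than in blood (log2 change 2.43) and Hspa8 lower (-0.93). Whether handling or release had a part in either sum was not tested. Markers of other cells also differed, with neutrophil marker sums of 4311 to 13850 TPM over small intestine, colon and skin against 52070 to 76900 TPM over lung, spleen, blood and bone marrow. The neutrophil markers did not move together, so this sum is no measure of neutrophil content. Against blood, skin had lower Retnlg (log2 change -3.37) but higher Cxcr2 (1.56). Spleen had higher Ngp (6.18) and S100a9 (5.09) than blood, while Retnlg (-0.23) did not pass. In the sorted libraries Retnlg alone was at 5777.0 to 12589.36 TPM, and S100a9 at most at 413.21 TPM. Of 7 epithelial and stromal markers 5 were higher in barrier tissues (266.2 to 433.5 TPM in small intestine, 13.29 to 50.38 TPM in skin, 86.78 to 111.2 TPM in blood). They did not move together either, since skin had lower Krt18 (-3.71) and Pecam1 (-1.8) but higher Col1a2 (1.71) than blood. Their sum is thus no measure of epithelial or stromal content. Erythroid and platelet markers, of which 7 of 8 fell in barrier tissues, summed to 86.61 to 17800 TPM in small intestine, 105.7 to 357.4 TPM in colon, 68.92 to 1512 TPM in skin and 2267 to 29130 TPM in lung, against 70.95 to 39580 TPM in spleen, 39170 to 118900 TPM in blood and 7797 to 18470 TPM in bone marrow. Of 6 macrophage and monocyte markers 2 rose and 2 fell in barrier tissues, while against blood 4 were higher in small intestine, 3 in colon and 5 in skin, among them C1qa and C1qb in each. Their sum was 331.3 to 511.7 TPM in small intestine, 141.9 to 166.9 TPM in colon and 370 to 462.4 TPM in skin, against 138.5 to 274 TPM in blood. The part of these genes and cells in the chaperone results was not tested. In bulk libraries fewer cells of a type and less RNA per cell cannot be told apart.

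Small intestine was then set against each of the 6 other tissues on average. Here 24 members were higher and 2 lower, against 24.7% and 16.1% of all genes. Of the inducible list 8 of 11 were higher, with a median log2 change of 1.17, and Dnajb1, Hspd1 and Hspe1 did not pass. Hspa1a led at 3.86 (SE 0.45, limma adjusted p = 6.834e-08), then Hspa4l at 2.44 (SE 0.23, adjusted p = 1.468e-09) and Dnajb4 at 2.06. The endoplasmic reticulum members Hspa13 (2.02), Dnajb9 (1.66) and Dnajb11 (1.47) were also higher. Small intestine replicate 1 had the highest level of 10 of the 11 inducible genes within its tissue, all but Hspa4l. Without it the calls for Hsp90aa1, Hspa1b, Hsp90ab1 and Hspa4 were lost, with adjusted p-values of 0.05682 to 0.2242, and those for Hsp90ab1 and Hspa4 were also lost after median-ratio scaling and quantile normalization. The lower members were Hspb11 (-1.87) and Dnajc21 (-1.28), a ribosome maturation factor, and Hspb11 was lost without small intestine replicate 2 (adjusted p = 0.06003).

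Against colon, the nearest neighbour, 3 members were higher and 2 lower in small intestine, against 5.63% and 7.1% of all genes. Dnaja1 had a log2 change of -1.39 (SE 0.23, limma adjusted p = 9.439e-05), with no overlap between the small intestine values of 853.93 to 1584.86 TPM and the colon values of 2591.83 to 3339.51 TPM. Dnajb1 had a change of -1.61 (SE 0.46, adjusted p = 0.02093), which was lost without colon replicate 1 or 2 or small intestine replicate 3 or 4, with adjusted p-values of 0.06215 to 0.1367. Hspa13 was higher by 1.18 (adjusted p = 0.01338) and Dnajc27, a small GTPase with a J domain, by 1.25 (adjusted p = 0.03767), and both were lost without some single libraries and with a pseudocount of 0.1.

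Hspa4l, an HSP110 of the same family as Hsph1 and Hspa4, was the member that set small intestine apart most clearly from colon. It was at 133.82, 91.22, 98.82 and 140.37 TPM in small intestine, against 19.73, 26.21 and 36.98 TPM in colon. Skin was next to small intestine with 80.05, 73.65 and 46.62 TPM, and lung, spleen, blood and bone marrow libraries ranged from 6.4 to 24.67 TPM. Every small intestine library was thus above every library of the other tissues, and the order of means was small intestine, skin, colon, lung, blood, spleen and bone marrow, of which the last 4 overlapped. The log2 change against colon was 2.03 (SE 0.32, limma adjusted p = 5.157e-05). Its gene lies on chromosome 3 at 40744495 to 40796103 (plus strand, mm10).

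**Figure D4:**
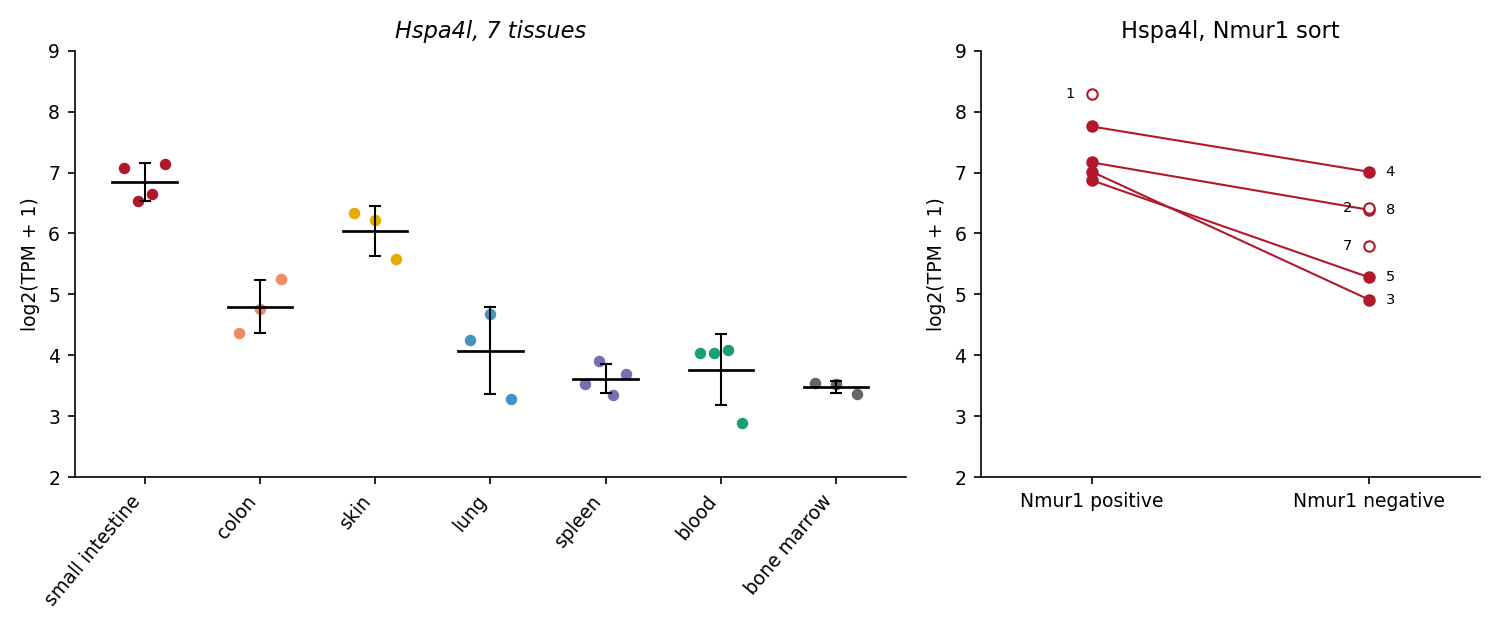
Hspa4l as log2(TPM + 1) in the libraries of 7 tissues (left, with mean and SD) and in the sorted small intestine libraries (right), where lines join libraries with the same number, open points have no partner and digits are the library numbers. Small intestine lies above all other tissues, and the positive library of each of the 4 pairs lies above its negative partner.

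The sort asked whether Nmur1 positive and Nmur1 negative small intestine eosinophils differ. Of 53 measured members 2 were higher and 1 lower in Nmur1 positive cells, against 9.18% and 5.25% of all 7982 genes tested. In 0 members were all positive libraries above or all below the negative ones, against 5.65% and 3.71%. Hspa4l was at 310.35, 128.33, 215.29, 116.26 and 142.68 TPM in positive libraries 1, 3, 4, 5 and 8, against 84.32, 29.16, 128.13, 37.87, 54.8 and 82.78 TPM in negative libraries 2, 3, 4, 5, 7 and 8. The groups overlapped only in that negative library 4 exceeded positive library 5, by 128.13 against 116.26 TPM, and reached nearly the level of positive library 3. The log2 change was 1.23 (SE 0.33, limma adjusted p = 0.007653), and the positive library was higher in 4 of 4 pairs with the same number.

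Dnajb9, an endoplasmic reticulum J-domain protein of the unfolded protein response, was at 120.33, 88.32, 101.49, 120.16 and 104.94 TPM in positive libraries, against 64.87, 31.97, 89.48, 36.8, 59.52 and 72.73 TPM in negative libraries. Its log2 change was 0.71 (SE 0.23, limma adjusted p = 0.01408), and it was higher in 4 of 4 pairs, while its partner Hspa5 had 1599.04 to 2159.65 TPM in positive and 1617.31 to 2388.42 TPM in negative libraries and did not pass (adjusted p = 0.5044). Of the endoplasmic reticulum list outside the symbol rule, Xbp1 (0.33, SE 0.17, limma adjusted p = 0.04106) and P4hb (0.27, SE 0.13, adjusted p = 0.01479) were higher. The other measured genes of that list did not pass. Hspbp1 was lower, with 11.08, 4.58, 2.95, 3.89 and 9.09 TPM in positive libraries against 13.76, 30.53, 26.86, 20.7, 8.68 and 12.44 TPM in negative libraries. Its log2 change was -1.67 (SE 0.37, adjusted p = 0.0149), and it was lower in 4 of 4 pairs.

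Within the sort the inducible genes other than Hspa4l varied far more between libraries of the same group than between the groups. Hspa1a was at 2490.22, 106.35, 1635.03, 25.31 and 269.35 TPM in positive libraries 1, 3, 4, 5 and 8, against 418.08, 174.04, 1800.8, 15.8, 190.61 and 181.27 TPM in negative libraries 2, 3, 4, 5, 7 and 8. Its log2 change was 0.39 with an SE of 1.08 (limma adjusted p = 0.7379), so the difference was well within the spread. Positive libraries 1 and 4 and negative library 4 were the 3 highest for 10 of the 11 inducible genes, all but Hspa4l. The same was true of 4 of the 42 other members (Hsp90ab1, Cct3, Cct7 and Dnajc5) and of 1.917% of all genes tested. Hspa4l also had these libraries highest within each group, at 310.35 and 215.29 TPM in positive and 128.13 TPM in negative cells. These 3 libraries were chosen with the inducible values known, so all counts of them are a description and no test. Both libraries numbered 5 lay at the low end, with 25.31 TPM of Hspa1a in the positive and 15.8 TPM in the negative one.

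**Figure D5:**
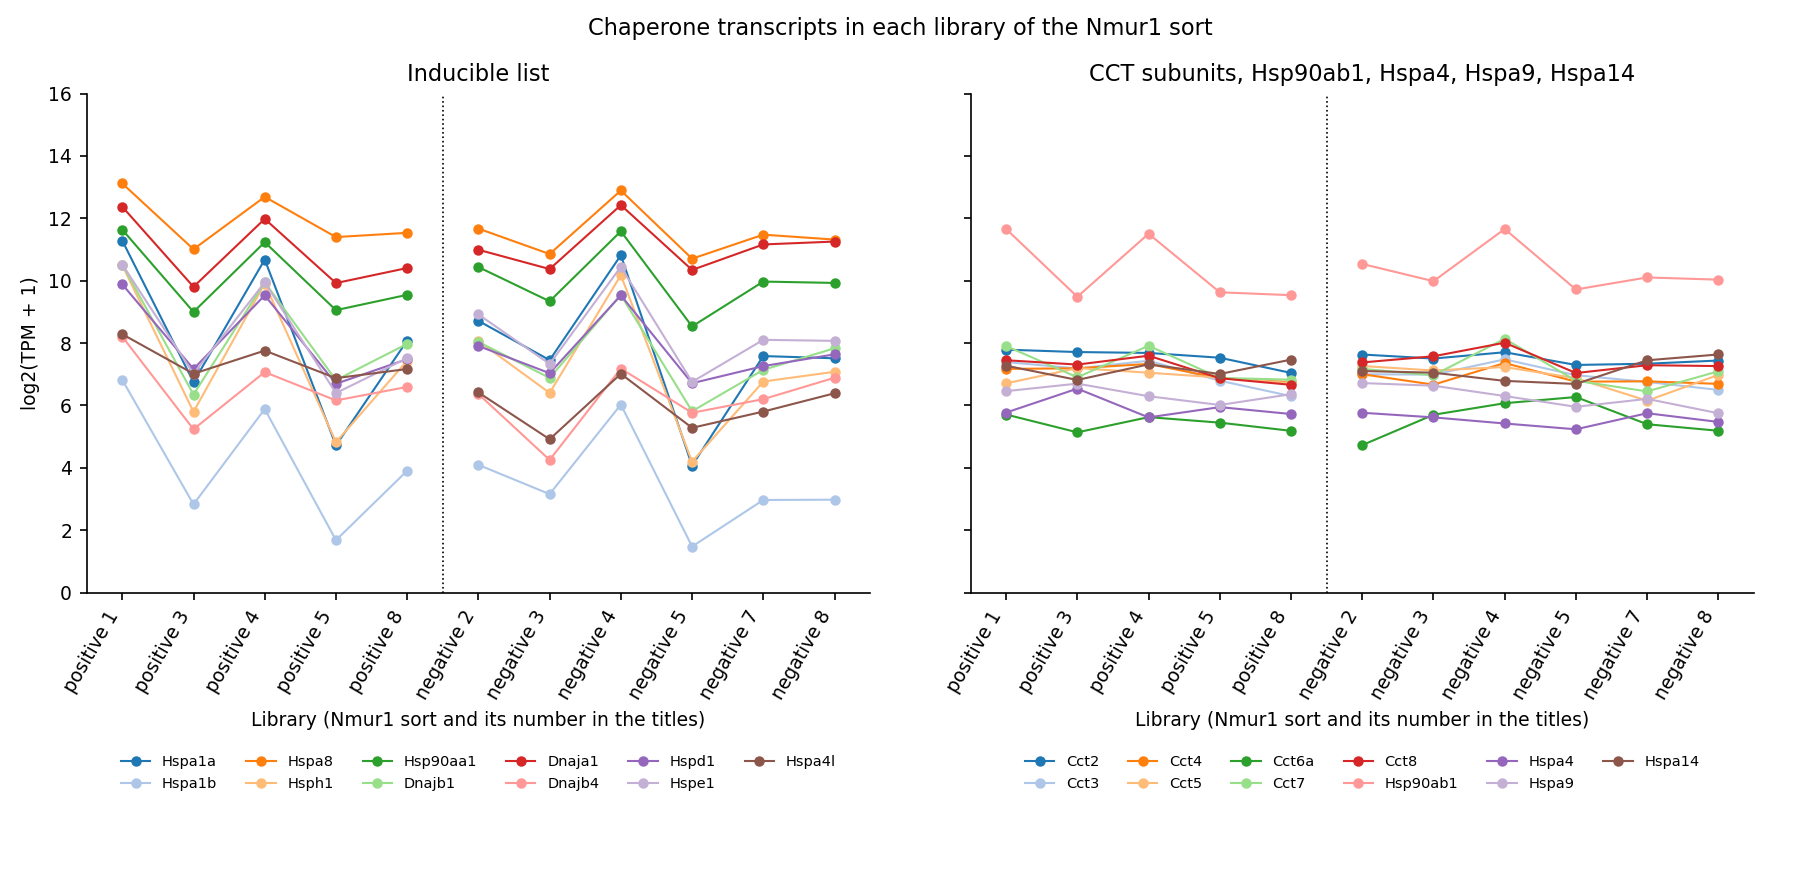
Levels as log2(TPM + 1) of the 11 inducible genes (left) and of 11 constitutive genes (right) in the 5 Nmur1 positive and 6 Nmur1 negative libraries. Each line joins the values of 1 gene within a group, and libraries have no order. Positive libraries 1 and 4 and negative library 4 stand high for the inducible genes and for Hsp90ab1. For Hspa4l they are the highest within their own groups but not the 3 highest of all libraries.

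Hsph1 followed the same libraries, at 1439.47, 54.5, 959.36, 27.26 and 171.54 TPM in positive and 266.87, 83.45, 1154.69, 17.3, 107.78 and 134.05 TPM in negative cells. Over the 11 inducible genes the highest library was a median of 9.202-fold above the lowest within Nmur1 positive cells and 8.305-fold within Nmur1 negative cells. Over the 7 CCT subunits these folds were 1.682 and 1.983, and over all genes at 1 TPM or more 2.066 and 2.23. Among lists outside the symbol rule, 9 of 14 further heat shock factors and targets had the same 3 libraries on top, against 1.917% of all genes tested. These were Bag3, Chordc1, Ubb, Cacybp, Hmox1, Stip1, Ahsa1, Ahsa2 and Fkbp4. The counts were 0 of 28 immediate early and dissociation genes and 0 of 15 endoplasmic reticulum chaperones, which is near the share of all genes. Bag3 ranged from 7.57 to 251.6 TPM in positive and from 4.56 to 167.97 TPM in negative libraries. In total small intestine eosinophils of wild-type mice the highest library was a median of 3.958-fold above the lowest over the inducible list, 1.48-fold over the CCT subunits and 1.802-fold over all genes at 1 TPM or more. The fold over the inducible list was smaller there than in the sort, which had more libraries per group.

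Libraries with the same number tended to deviate together in the sort, though the labels state no pairing and some pairs with different numbers did so too. A fit with the library number as a block was therefore run on the 4 pairs 3, 4, 5 and 8. With this block 2 members were higher and 3 lower in Nmur1 positive cells. Dnaja1 became a lower call, with a fitted log2 change of -0.57 before the median shift (limma adjusted p = 0.00119), and Hspe1 as well (-0.43, adjusted p = 0.02723), and both were lower in the positive library in 4 of 4 pairs. Dnaja1 was at 891.32, 4037.81, 969.04 and 1354.27 TPM in positive libraries 3, 4, 5 and 8, against 1323.39, 5485.6, 1297.78 and 2439.03 TPM in the negative libraries of the same numbers. Without the block neither passed (adjusted p = 0.7993 for Dnaja1 and 0.9949 for Hspe1). With the 3 libraries numbered 1 and 4 left out, an alternative chosen after seeing the data, 2 members were higher and 1 was lower, and Dnaja1 was lower (adjusted p = 0.03374) while Hspbp1 no longer passed (adjusted p = 0.05672).

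Lists outside the symbol rule were also counted in the sort, where 9.18% of all genes were higher and 5.25% lower. Of 14 heat shock factors and targets 2 were higher in Nmur1 positive cells, among them Ubb at 0.37 (SE 0.19, limma adjusted p = 0.04154), and of 23 cochaperones 2 were, Unc45a and Tomm34. Of 28 immediate early and dissociation genes 9 were higher and 5 lower, and their sum was 9059 to 22280 TPM in positive against 8537 to 23820 TPM in negative libraries. Macrophage and monocyte markers summed to 336.6 to 591.6 TPM in positive against 144 to 227.4 TPM in negative libraries (3 of 5 higher), and epithelial and stromal markers to 298.4 to 394.3 TPM against 167.1 to 241.8 TPM (2 of 3 higher). The 3 epithelial and stromal markers were Olfm4 and Pecam1, which were higher, and Krt18, which did not pass (limma adjusted p = 0.3234). Their sum is no measure of epithelial or stromal content here either. The part of these lists in the calls for Hspa4l, Dnajb9 and Hspbp1 was not tested.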

How the data were processed

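Libraries were made with Smart-seq2 and deposited as 2 tables of TPM, 1 for the tissues and 1 for the sort. The authors' tools, per the submitters' processing notes, include RSEM 1.3.3, STAR 2.7.5c and cutadapt 2.10, with the build mm10, and the tables are named as filtered. The filter keeps only part of the genes, and columns summed to 796048 to 890768 TPM in the tissue table and 799585 to 863816 TPM in the sort table. TPM keep no depth, so the depth per library and intervals that need it are unknown. The single-cell sample was not analysed here.

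From the deposited TPM, log2(TPM + 1) was tested with limma 3.58.1 in R 4.3.3, with moderated statistics and Benjamini-Hochberg adjustment over all genes at 1 TPM or more in at least 3 tissue libraries (9806 of 9844 genes) or 5 sort libraries (7982 of 8001 genes). All 24 tissue libraries entered 1 fit with a mean per tissue. A call is an adjusted p under 0.05. The fit was tested on simulated data, and the outcome is not reported here. Alternatives were a pseudocount of 0.1, no filter, median-ratio scaling, quantile normalization, a replicate block, fits of 2 tissues alone and leaving out each library. Leaving out lung, and leaving out the sort libraries numbered 1 and 4, were chosen after seeing the data.

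Same-numbered sort libraries tended to deviate together (4 of 4 pairs, r of deviations from the group means 0.164 to 0.225), so the block is given where it changes a call. The 26 pairs with different numbers had a median r of -0.042 but reached 0.194, with 3 above 0.1. The labels state no pairing. The genes and lists were chosen with earlier results of these data known. Named genes were all of the inducible list and the CCT subunits, Tcp1, Hsp90ab1, Hspa4 and Hspa9, the 5 called members with the largest rise and the 5 with the largest fall per comparison, and up to 4 called genes of each other list. Genes named outside this rule were chosen after their values were seen. Not all genes that the rule allows are reported here. Coordinates are from GENCODE M21 on mm10, and start windows are from RefSeq on GRCm38.p6.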

Additional observations from a re-analysis of the deposited data

Results flagged for a closer look

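In groups of 4 to 10 libraries a named gene was listed when its highest or lowest library lay further from the nearest other library, as a share of the group's range of log2(TPM + 1), than Dixon's 95% critical value. Of 180 gene and group combinations over 37 named members 11 were listed, where chance gives about 5%. In small intestine Dnajc9 was low in replicate 3 (12.75 TPM, nearest 14.9 TPM) and Dnajc13 low in replicate 2 (6.29 TPM, nearest 11.96 TPM). In spleen replicate 1 Hsp90aa1 was high (145.55 TPM, nearest 56.17 TPM) and Hspd1 low (37.16 TPM, nearest 61.71 TPM), and in spleen replicate 4 Hspb11 was low (3.95 TPM, nearest 16.42 TPM). In blood replicate 2 Hspa1b (0.16 TPM, all others listed at 0) and Hspbp1 (8.72 TPM, nearest 3.79 TPM) were high. In blood replicate 4 Hspa4l was low (6.4 TPM, nearest 15.44 TPM) and Hspa13 high (1.26 TPM, nearest 0.84 TPM). In the Nmur1 negative group Cct5 was low in replicate 7 (69.97 TPM, nearest 116.12 TPM) and Dnajb14 high in replicate 5 (2.35 TPM, nearest 0.52 TPM).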

How the results depend on the processing

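Of 180 results for single genes 131 kept their direction and side of the threshold under every alternative run. With lung left out of the barrier tissues 4 members fell instead of 7. A pseudocount of 0.1 gave 1 member higher in small intestine than colon, 0 lower in spleen than blood and 3 lower in small intestine than blood. Fits of 2 tissues alone gave 1 lower in small intestine than colon, 9 lower in bone marrow, 0 in spleen and 2 in small intestine than in blood. Quantile normalization gave 8 members lower in bone marrow and 11 higher in lung than in blood, and median-ratio scaling 11 higher and 6 lower in lung. The replicate block gave 3 lower in Nmur1 positive cells, and the cause of these shifts was not tested. Leaving out 1 library gave 48 to 55 members differing among tissues, 24 to 30 higher and 7 to 8 lower in barrier tissues, and 17 to 27 higher and 1 to 3 lower in small intestine than in the 6 others (1 without small intestine replicate 2). Against colon, small intestine had 2 to 3 higher and 1 to 3 lower (1 without colon replicate 1 or 2). Against blood it gave 14 to 19 higher and 2 to 6 lower in bone marrow (2 without bone marrow replicate 1), 0 higher and 0 to 1 lower in spleen, 4 to 7 and 10 to 15 in lung, 30 to 32 and 2 to 3 in skin, 23 to 27 and 1 to 3 in colon (1 without colon replicate 1), and 29 to 33 and 2 to 4 in small intestine. In the sort it gave 2 to 3 higher and 1 lower. The reversals were all of inducible genes in the sort that did not pass without the block. Their fitted log2 changes, before the median shift, were -0.06 for Hsp90aa1 and -0.18 for Hspe1 with median-ratio scaling, 0.01 for Dnaja1 and -0.02 for Hspe1 with quantile normalization, and -0.14 for Hsp90aa1, -0.01 for Hspd1 and -0.43 for Hspe1 with the replicate block. Without the libraries numbered 1 and 4 they were -0.1 for Dnajb1, -0.44 for Hsp90aa1, -0.55 for Hspa1a, -0.13 for Hspa1b, -0.19 for Hspd1, -0.86 for Hspe1 and -0.49 for Hsph1. Leaving out 1 library they ranged from -0.56 to 0.08 for Dnaja1, -0.26 to 0.45 for Hsp90aa1, -0.14 to 1.51 for Hspa1a, -0.55 to 0.48 for Hspe1 and -0.12 to 1.29 for Hsph1. Same-numbered tissue libraries did not deviate together (62 pairs, r from -0.045 to 0.088). With unknown depth, values near 0 have no stated precision.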
